A study of Homo sapiens with 12 samples.

Results

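Transcripts of 9 surface antigens of B-lineage leukaemia were followed in a pair of human cell lines kept with or without ADI-PEG20, which takes arginine out of the medium. The antigens were CD22, MS4A1 (CD20), CD52, TNFRSF13C (the BAFF receptor), CD27, CD38, MME (CD10), CD34 and CD24, and they make up 9 of the 60664 genes counted. They were chosen by role, as antigens used to diagnose B-lineage leukaemia or to aim an antibody at it, and the list was drawn up with the fitted values of all 4 groups already known, among them a large difference in CD52 in TOM-1. Their levels and fold changes are therefore given as a description, with no p-value, and support nothing by themselves. Past the threshold means, throughout, an adjusted p under 0.05 in the model fitted to all genes.

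B-lineage leukaemia is typed by the proteins on its surface, since these follow the stages of B-cell development. MME and CD34 mark early precursors, CD22 and CD24 are carried from the precursor stage on, MS4A1 and TNFRSF13C appear later, and CD27 is known on memory B cells. Several are antibody targets: CD22 for inotuzumab ozogamicin, MS4A1 for rituximab, CD52 for alemtuzumab and CD38 for daratumumab. How much antigen a cell carries also depends on protein turnover and transport, which RNA counts do not measure.

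TOM-1 is a Philadelphia chromosome-positive line with a BCR-ABL1 fusion, and the RS4;11 line has a KMT2A fusion. Both are labelled as wild type in genotype, and each group comes from 1 line only. ADI-PEG20 is a pegylated arginine deiminase, given at 1000 ng/ml for 24 hours, and the other groups were control cultures of the same 24 hours, whose vehicle is not given in the sources used here. Each line was sampled in control culture and with ADI-PEG20, in 3 libraries per group and 4 groups. Nothing says that the replicates were separate cultures, so tests measure only the spread between these libraries, which may be technical. In bulk RNA, fewer cells with an antigen and less RNA per cell cannot be told apart.

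Total counts ran from 18958144 to 35956959 per library. The library of TOM-1 control replicate 3 stood apart: 14963 genes had counts in it against 19857 to 21997 in the other 11, genes of ribosomal proteins took 19.7% of its counts against 5.91% to 9.89%, and its log2 CPM correlated with its replicates at 0.926 and 0.921, against 0.975 or more for every other pair within a group. Fold changes with ADI-PEG20 in TOM-1 are given with and without it, for the antigens and for genes named from lists of related genes. All 9 B-lineage markers checked had more than 3 counts in every library. Levels are in CPM (read counts relative to the library's TMM-scaled total). The markers summed to 6570 to 8220 CPM in TOM-1 control and 2660 to 2920 CPM in RS4;11 control. Among them DNTT averaged 3520 CPM in TOM-1 control and 77.6 in RS4;11 control. CD79A (164 and 276 CPM) and EBF1 (137 and 250) had lower means in TOM-1, and the rest had higher means. Of 6 T-cell markers TRAC alone had more than 3 counts in all libraries, while CD3D, CD3E and CD3G were at 0 in TOM-1 and in the RS4;11 controls. TRAC kept the summed T-cell level at 123 to 210 CPM in TOM-1 control and 135 to 151 CPM in treated TOM-1, and at 427 to 479 and 424 to 457 CPM in RS4;11. Of the NK markers NCAM1, KLRD1 and NKG7, only NKG7 had counts, with 23.4 to 69.1 and 42.3 to 46.7 CPM in TOM-1 and 47.7 to 58.3 and 50.7 to 55.5 CPM in RS4;11. Of 6 myeloid markers, TOM-1 control had 2 above 3 counts in each library and RS4;11 control had 4. Their summed levels were 15.1 to 26.7 and 10.2 to 16.0 CPM in control and treated TOM-1, mostly MPO in control, and 16.7 to 22.3 and 14.5 to 18.3 CPM in RS4;11, mostly CSF1R in control, with S100A8 at 0 in both lines' controls. Of 3 stromal markers COL1A2 was at 0 in all groups, and the summed levels, mostly PDGFRB in control, were 6.12 to 11.5 and 2.70 to 3.74 CPM in TOM-1 and 36.3 to 46.0 and 32.5 to 40.8 CPM in RS4;11. The part of these markers in the results was not tested.

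All 9 antigens passed the filter on low counts. MS4A1, MME and CD27 did so only through TOM-1, as a filter on the RS4;11 libraries alone kept 6 of the 9. These 3 were bound to differ between the lines to be tested there at all, so counts over the antigens that passed are read as a description.

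In TOM-1 with ADI-PEG20, CD52 was the antigen that differed most, 9.49-fold lower than in control culture. The other 8 stayed within 1.69-fold of control. MS4A1, CD34, CD24 and TNFRSF13C had lower means than control, and CD22, CD38, MME and CD27 had higher means. Past the threshold was 1 of 9 antigens, CD52, against 31.9% of all genes called in either direction and 15.9% called lower. Leaving out TOM-1 control replicate 3 gave 3 of 9, namely CD52, MS4A1 and CD24, all lower, against 41.6% of all genes in either direction and 19.8% lower. The median log2 fold change of the 9 was -0.14 with and without that library, and that of all genes was 0.05 with it and 0.00 without. Libraries of the compared groups did not overlap for 5 of the 9 antigens, against 46.2% of all genes tested, and for 7 of 9 without TOM-1 control replicate 3, against 59.0% of all genes tested then.

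**Figure D1:**
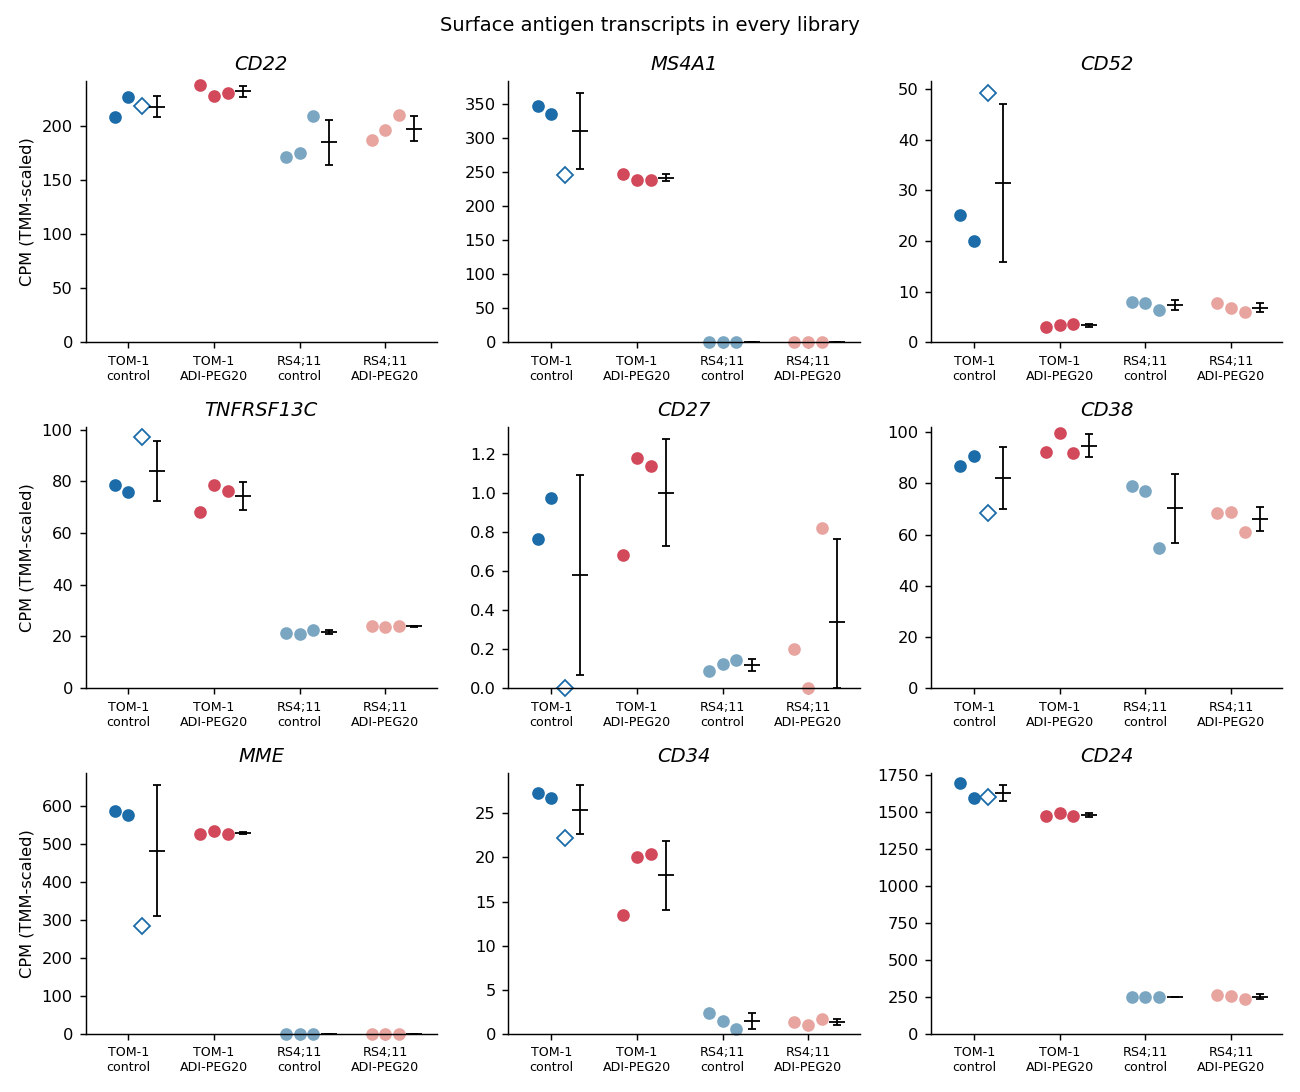
Level of each antigen in every library, in CPM on a linear axis from 0. Points are libraries, the open diamond is TOM-1 control replicate 3, and bars beside them give mean ± SD over 3 libraries, stopping at 0. CD52 in treated TOM-1 lies at 2.91 to 3.62 CPM, under all 9 libraries of the other groups, while CD22 lies at 171 to 238 CPM in all 12.

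CD52 (ENSG00000169442) is a very short glycoprotein held on the membrane by a glycosylphosphatidylinositol (GPI) anchor. Its gene lies on chromosome 1 from 26317957 to 26320523 on the plus strand (GRCh38, GENCODE 29), with 935 exonic bases in 3 exons. The bases before the start of transcription are shown because this is the antigen whose level changed most. The coding sequence shows how short the protein is. The promoter window is RefSeq's on GRCh38.p14, 250 bases at chr1:26317708-26317957, plus strand. The coding sequence is spliced from chr1:26318018-26320302 (GENCODE 29), and capitals in it mark the start and stop codons.
CD52 promoter window: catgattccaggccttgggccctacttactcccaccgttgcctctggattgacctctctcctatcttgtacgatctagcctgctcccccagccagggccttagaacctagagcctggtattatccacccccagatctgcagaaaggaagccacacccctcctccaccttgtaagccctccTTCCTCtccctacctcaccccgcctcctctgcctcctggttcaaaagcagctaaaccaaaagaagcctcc
CD52 coding sequence: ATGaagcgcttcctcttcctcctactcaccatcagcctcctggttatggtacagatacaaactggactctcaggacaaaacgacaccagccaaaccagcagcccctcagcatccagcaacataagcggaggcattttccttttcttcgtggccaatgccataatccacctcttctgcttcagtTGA
The coding sequence has 186 bases, or 61 codons before the stop, in a transcript of 468 bases. Capitals in the promoter window mark TTCCTC, the reverse complement of GAGGAA, a core bound by the myeloid and B-cell factor PU.1, which starts 70 bases before the start of transcription.

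In TOM-1 control CD52 was at 25.2, 20.0 and 49.3 CPM in replicates 1 to 3 (31.5 ± 15.6, SD, n = 3). With ADI-PEG20 it was at 2.91, 3.40 and 3.62 CPM (3.31 ± 0.362, n = 3). Every treated library was lower than every control library, and the highest control value was that of the departing replicate 3. The counts behind these values were 887, 514 and 894 in control and 68, 89 and 92 with ADI-PEG20. The log2 fold change was -3.25 (SE 0.31). Without TOM-1 control replicate 3 the control mean was 22.6 CPM and the log2 fold change -2.77 (SE 0.20), a 6.84-fold difference. CD52 stood past the threshold in all 19 alternative fits, with log2 fold changes from -3.52 to -2.77.

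For a scale of CPM per kb of exon, all annotated exons of a gene were counted. CD52 then lay above 91.7% of 17072 genes with a known length in TOM-1 control and above 50.6% with ADI-PEG20. Exons of UBXN11, on the other strand, cover 2.7% of CD52's exonic bases. UBXN11 was at 57.1 ± 23.3 CPM in TOM-1 control and 25.4 ± 1.52 with ADI-PEG20, and its control mean was 43.9 CPM without replicate 3. Whether the counting used strand is not given in the sources used here, so reads in that small overlap cannot be told apart.

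MS4A1 (CD20), a membrane-spanning protein of maturing B cells, was at 347, 335 and 245 CPM in TOM-1 control and at 247, 238 and 238 CPM with ADI-PEG20. Control replicates 1 and 2 were above all treated libraries, and control replicate 3 lay among the treated values. The log2 fold change was -0.36 (SE 0.32) with all libraries and -0.50 (SE 0.10) without control replicate 3, where it passed the threshold. CD24, a small GPI-anchored mucin-like protein that SIGLEC10 can bind, was at 1690, 1590 and 1600 CPM in control and at 1470, 1490 and 1470 CPM with ADI-PEG20. Its groups did not overlap, at a log2 fold change of -0.14 (SE 0.09), or -0.16 (SE 0.06) and past the threshold without control replicate 3. The CD24 pseudogenes CD24P1 and CD24P2 took at most 0.015% of CD24's counts in any library. Any copy on chromosome Y was left out of this check.

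CD34, a sialomucin of blood progenitors, was at 27.3, 26.8 and 22.2 CPM in TOM-1 control and at 13.5, 20.0 and 20.4 CPM with ADI-PEG20. All treated libraries were below all controls, and the lowest treated value came from replicate 1. The log2 fold change of -0.50 (SE 0.33) was not past the threshold, nor was -0.59 (SE 0.25) without control replicate 3. MME (CD10, the common acute lymphoblastic leukaemia antigen) is a zinc endopeptidase. It was at 587, 577 and 283 CPM in control and at 527, 533 and 526 CPM with ADI-PEG20. Here control replicate 3 decided the sign: the log2 fold change was 0.13 (SE 0.28) with it and -0.14 (SE 0.07) without it, and neither was past the threshold.

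CD22, an inhibitory co-receptor of the B-cell receptor that binds sialic acid, was at 208, 227 and 219 CPM in TOM-1 control and at 238, 228 and 231 CPM with ADI-PEG20. The groups just failed to overlap, at a log2 fold change of 0.09 (SE 0.11), and 0.09 (SE 0.08) without control replicate 3. CD38, an enzyme that splits NAD, was at 87.0, 90.9 and 68.5 CPM in control and at 92.3, 99.9 and 92.0 CPM with ADI-PEG20. Its log2 fold change was 0.21 (SE 0.16), and 0.09 (SE 0.11) without control replicate 3, so much of the larger value came from that library.

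TNFRSF13C, the receptor through which BAFF keeps B cells alive, was at 78.5, 76.0 and 97.3 CPM in TOM-1 control and at 68.3, 78.6 and 76.4 CPM with ADI-PEG20. Its log2 fold change of -0.17 (SE 0.12) shrank to -0.06 (SE 0.09) without control replicate 3. CD27, the receptor of CD70, had 27, 25 and 0 counts in control and 16, 31 and 29 counts with ADI-PEG20. Its log2 fold change of 0.76 (SE 1.17) is small beside its error, and was 0.20 (SE 0.95) without control replicate 3. CD27 is also uncertain because exons of CD27-AS1 on the other strand cover 37.0% of its exonic bases. CD27-AS1 was far above it, at 20.1 ± 0.825 CPM in TOM-1 control and 17.7 ± 1.55 with ADI-PEG20.

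**Figure D2:**
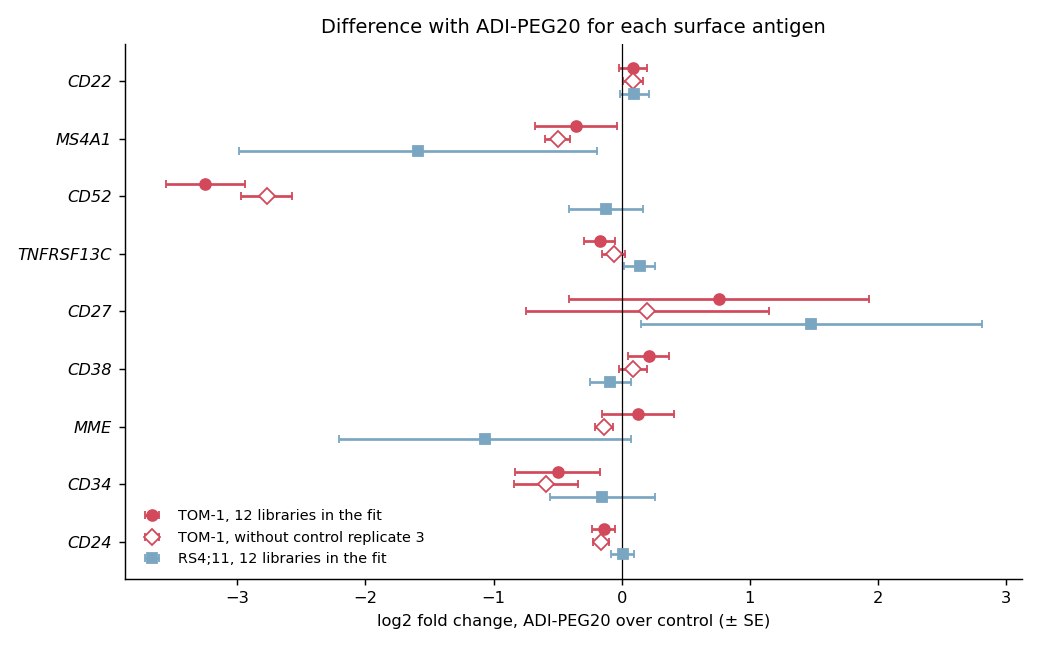
Log2 fold change of ADI-PEG20 over control for each antigen, with its SE, in TOM-1 from all 12 libraries (filled circles), in TOM-1 without control replicate 3 (open diamonds) and in RS4;11 (squares). CD52 in TOM-1 lies at -3.25 and -2.77, apart from every other value, and the wide bars in RS4;11 belong to MS4A1, MME and CD27, which had 16 counts or fewer in any library there.

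In RS4;11 with ADI-PEG20, the fitted levels of CD52, CD24, CD22, CD38, TNFRSF13C and CD34 lay within 1.11-fold of control. MS4A1, MME and CD27 had few counts there and are given as counts. CD52 was at 8.03, 7.79 and 6.26 CPM in control and at 7.65, 6.75 and 5.89 CPM with the enzyme, values that overlap, at a log2 fold change of -0.12 (SE 0.29). CD24 was at 248 ± 2.74 CPM in control and 250 ± 16.3 with ADI-PEG20 (0.01, SE 0.09, on the log2 scale). CD22 was at 185 ± 20.9 and 198 ± 11.7 CPM (0.10, SE 0.11), and CD38 at 70.3 ± 13.6 and 66.1 ± 4.48 CPM (-0.09, SE 0.16). TNFRSF13C was at 21.2, 21.0 and 22.4 CPM in control and 23.8, 23.7 and 24.0 CPM with ADI-PEG20 (0.14, SE 0.12), not past the threshold. Its groups did not overlap, but how often that held over all genes in RS4;11 was not counted.

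CD34 was low in RS4;11, with 55, 34 and 12 counts in control and 32, 20 and 33 counts with ADI-PEG20. MS4A1 had 0, 0 and 7 counts in control and 0, 0 and 2 counts with ADI-PEG20, and MME 2, 5 and 0 counts and then 2, 1 and 0. CD27 had 2, 3 and 3 counts in control and 5, 0 and 16 with ADI-PEG20. On so few reads the fitted log2 fold changes were -1.59 (SE 1.40) for MS4A1, -1.07 (SE 1.14) for MME and 1.48 (SE 1.33) for CD27. None of the 9 antigens was past the edgeR threshold in RS4;11, 0 had an unadjusted p under 0.05, and DESeq2 called 0. Of all genes 0% were called in this comparison, and 0.317% without TOM-1 control replicate 3, which is not one of its libraries but shares the estimate of the spread.

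Set against each other, the treatment effects in the lines differed past the threshold for 1 of 9 antigens, CD52, with a difference of -3.13 (SE 0.42) on the log2 scale, TOM-1 minus RS4;11. With that control library left out it was -2.65 (SE 0.27), and again 1 of 9 antigens passed. Of all genes 11.9% passed with that library and 30.4% without it. The remaining differences were small or imprecise. For CD24 it was -0.15 (SE 0.13), for TNFRSF13C -0.32 (SE 0.17), for CD38 0.29 (SE 0.22) and for CD22 0.00 (SE 0.15).

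In control culture all 9 had higher means in TOM-1, and 6 of 9 passed the threshold, all higher, against 34.7% of all genes called in either direction and 16.2% higher. When TOM-1 control replicate 3 was left out all 9 passed, against 52.8% in either direction and 25.4% higher, since CD22, CD38 and CD27 joined the others. The median log2 fold change of the antigens was 2.28, or 2.72 without that library, while that of all genes was 0.01, or -0.01 without it. The 2.28 was CD27's own value (SE 1.31), on 27 counts or fewer in each TOM-1 control library. CD27-AS1, which overlaps CD27 on the other strand, also had a higher mean in TOM-1 control (20.1 ± 0.825 CPM) than in RS4;11 control (7.93 ± 1.83). The part of its reads in CD27's counts was not tested. CD27, MS4A1 and MME passed the filter only through TOM-1, so a high median was partly built in.

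With ADI-PEG20 in both lines, 7 of 9 passed, 6 of them higher in TOM-1 and CD52 lower. Of all genes 47.2% were called in either direction and 23.1% higher. Without TOM-1 control replicate 3, 8 of 9 passed, 7 higher and 1 lower, against 62.9% in either direction and 31.4% higher. The comparisons share libraries with those of treatment, so each stands by its own values.

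MME and MS4A1 were abundant in TOM-1 and all but absent in RS4;11. In control culture MME had 7 counts in the 3 RS4;11 libraries together, against 5123 to 20658 counts in each TOM-1 library. The ratio of its CPM, TOM-1 over RS4;11, was 4720 with a 95% Poisson interval of 2290 to 11700, which covers counting error in RS4;11 only. MS4A1 also had 7 counts in RS4;11 control, all in replicate 3, against 4436 to 12212 counts in each TOM-1 library, a ratio of 3020 (1470 to 7520). With TOM-1 control replicate 3 left out the ratios were 5690 (2760 to 14200) for MME and 3340 (1620 to 8300) for MS4A1. With ADI-PEG20 the ratios were 11500 (3930 to 55700) for MME, on 3 counts in RS4;11, and 7850 (2170 to 64900) for MS4A1, on 2 counts. These intervals overlap those of control culture. Leukaemias with rearranged KMT2A are known for lacking CD10. The MME-AS1 gene, which runs against MME and covers 2.2% of its exonic bases, was at 1.29 ± 1.12 CPM in TOM-1 control, or 1.93 CPM without replicate 3, and at 0 in every RS4;11 library.

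CD34 and CD24 were expressed in both lines at very different levels. CD34 averaged 25.4 ± 2.78 CPM in TOM-1 control and 1.45 ± 0.894 in RS4;11 control, a log2 difference of 4.12 (SE 0.39), or 4.20 (SE 0.30) without TOM-1 control replicate 3. CD24 averaged 1630 ± 52.9 and 248 ± 2.74 CPM, a log2 difference of 2.71 (SE 0.10), or 2.72 (SE 0.06) without it. The lowest TOM-1 library for CD24, at 1470 CPM with ADI-PEG20, was far above the highest RS4;11 library at 263 CPM. TNFRSF13C averaged 83.9 ± 11.7 CPM in TOM-1 control and 21.5 ± 0.748 in RS4;11 control, with a log2 difference of 1.96 (SE 0.13), or 1.84 (SE 0.09) without that library, and 1.65 (SE 0.13) with ADI-PEG20. Its libraries did not overlap between the lines in either culture.

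CD22 and CD38 were the antigens most alike in the lines. CD22 averaged 218 ± 9.31 CPM in TOM-1 control and 185 ± 20.9 in RS4;11 control, where the RS4;11 library of replicate 3, at 209 CPM, overlapped the TOM-1 values. The log2 difference was 0.24 (SE 0.11), and 0.23 (SE 0.08) without TOM-1 control replicate 3. With ADI-PEG20 it was 0.24 (SE 0.11), with no overlap. CD38 differed by 0.23 (SE 0.16) in control culture, or by 0.33 (SE 0.11) and past the threshold without TOM-1 control replicate 3, and by 0.52 (SE 0.16) with ADI-PEG20. The second value was past the threshold, but not when any of the 3 treated TOM-1 libraries or RS4;11 treated replicate 2 or 3 was left out, where it ran from 0.39 to 0.50.

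CD52 was the antigen whose order between the lines turned with treatment. In control culture it was higher in TOM-1, by 2.09 (SE 0.30) on the log2 scale, or 1.62 (SE 0.19) without TOM-1 control replicate 3. With ADI-PEG20 it was lower in TOM-1, by -1.03 (SE 0.30), at 3.31 ± 0.362 CPM against 6.76 ± 0.882. That second call was lost without RS4;11 treated replicate 1, where the value was -0.94. TOM-1 control was highest, both RS4;11 groups followed with overlapping libraries, and treated TOM-1 was lowest, with no overlap with its neighbour.

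Per kb of exon, a rough scale for comparing levels of different genes, CD24 led in all 4 groups. It stood at 525 ± 17.1 CPM per kb in TOM-1 control, above 99.5% of genes, and at 80.1 ± 0.883 in RS4;11 control, above 97.3%. The length counts every annotated exonic base of a gene, which can exceed the transcript expressed. CD52 was divided by 935 bases, while its transcript given above has 468, so places in the order depend on the length used. In TOM-1 control the antigens then followed in the order MS4A1 (63.4 ± 11.5), MME (50.1 ± 18.0), CD22 (35.4 ± 1.51), CD52 (33.7 ± 16.7), TNFRSF13C (21.3 ± 2.96), CD38 (12 ± 1.74), CD34 (2.76 ± 0.302) and CD27 (0.412 ± 0.364). From MS4A1 down to TNFRSF13C, neighbours in this order overlapped within 1 SD over 3 libraries. Without control replicate 3 the order was the same, and MS4A1 (70.0 ± 1.72, n = 2) and MME (60.5 ± 0.743, n = 2) no longer overlapped.

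Treatment of TOM-1 moved CD52 from the fifth place to the seventh of these levels per kb, at 3.54 ± 0.387, between CD38 at 13.8 ± 0.655 and CD34 at 1.95 ± 0.420. MME, at 54.9 ± 0.405 CPM per kb, then stood above MS4A1 at 49.5 ± 1.11. In RS4;11 control CD22 (30.0 ± 3.39) came after CD24, followed by CD38 (10.3 ± 1.99), CD52 (7.87 ± 1.02) and TNFRSF13C (5.46 ± 0.190). CD34, CD27, MS4A1 and MME were lowest there, with CD34 at 0.157 ± 0.0970 CPM per kb the highest of them.

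**Figure D3:**
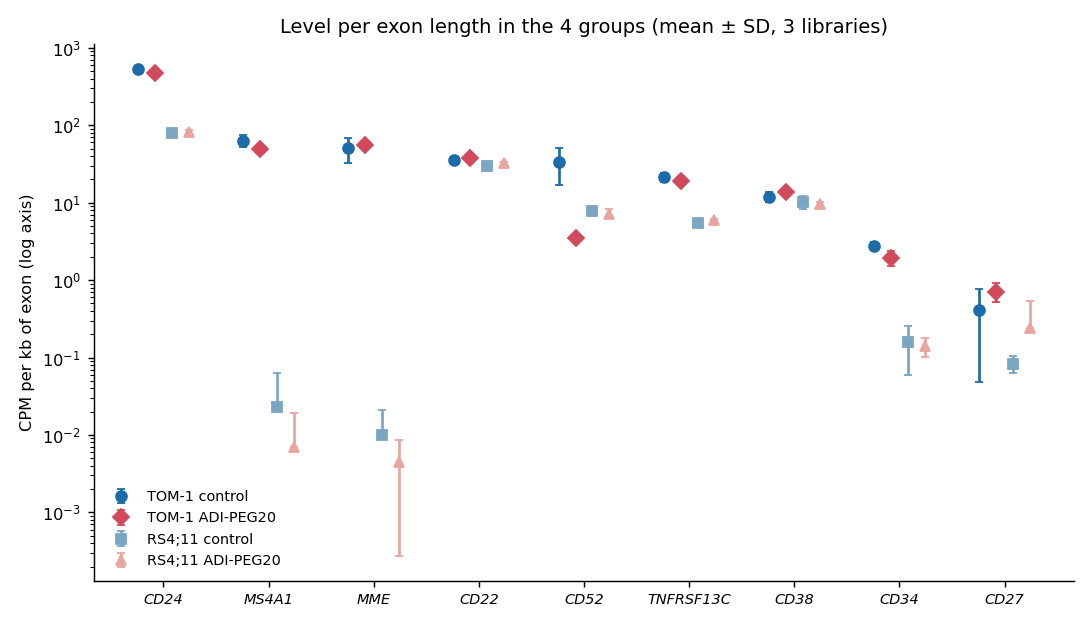
Mean level of each antigen per kb of exon in the 4 groups, in CPM per kb on a log axis, ordered by the mean in TOM-1 control. Bars are SD over 3 libraries, and the lower bar is left out where the SD exceeds the mean. MS4A1 and MME lie far lower in RS4;11 than in TOM-1, and CD52 in treated TOM-1 lies at 3.54, under its RS4;11 values of 7.87 and 7.24.

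How TOM-1 control replicate 3 departed depended on gene length, and the antigens span a wide range of lengths. Its median log2 CPM over that of replicates 1 and 2 was -0.16 for genes with under 1 kb of exon, 0.24 from 1 to 2 kb, 0.09 from 2 to 4 kb, -0.26 from 4 to 8 kb and -0.73 at 8 kb or more. Replicate 1 over replicate 2 had a median of 0.00 in every class. MME, with 9620 exonic bases, was at -1.04 in replicate 3 against replicates 1 and 2, and MS4A1, with 4872, was at -0.48. CD52, with 935 exonic bases, was at 1.11, far above the median of its class. Among long genes CD34, with 9219 exonic bases, departed less than its class, at -0.28, and CD22, with 6159, did not depart, at 0.01. The part of length in the antigens' values was not tested.

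**Figure D4:**
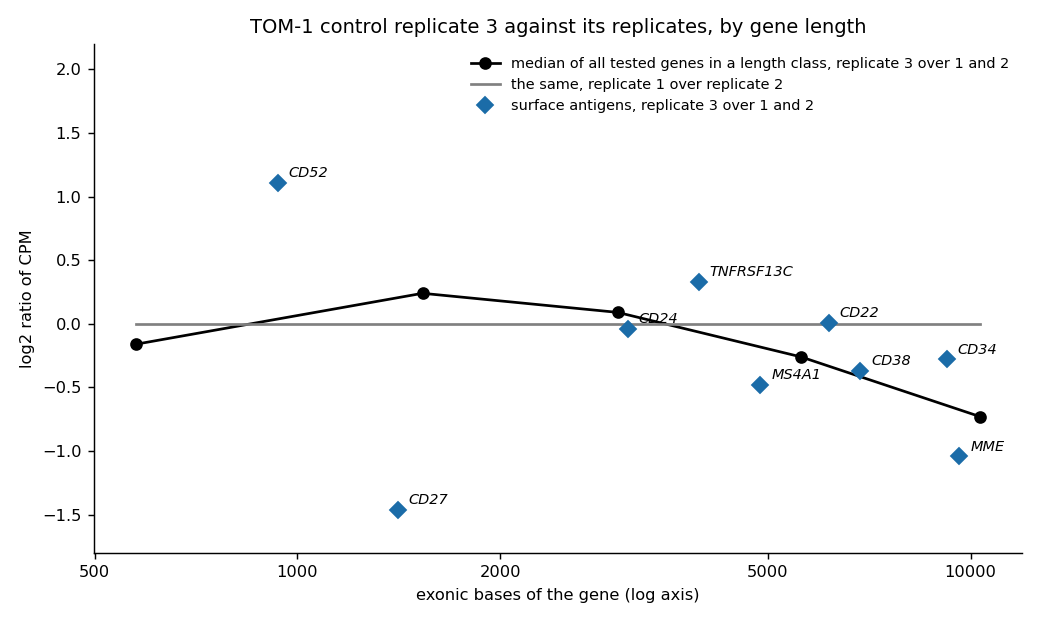
Log2 ratio of CPM in TOM-1 control replicate 3 to the mean of replicates 1 and 2, against exonic bases on a log axis. Black points are medians of all tested genes in 5 length classes, the grey line is replicate 1 over replicate 2, and diamonds are the antigens. CD52 lies at 1.11 and MME at -1.04, on either side of the class medians.

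Promoter windows were held for 7 of the 9 antigens, in 12 windows, since some genes have several starts. MS4A1 and TNFRSF13C had none. Motifs of B-cell factors were searched on both strands in the 250 bases before each start, with overlaps between motifs allowed. GAGGAA, the PU.1 core, was found for CD52 and CD34 and in 23.57% of 35116 windows of all genes. CCCNNGGG, the core of the EBF site, was found for CD24 and MME and in 17.05% of windows. ATGCAAAT, the octamer, was in none of the antigens' windows and in 1.63% of all, and CAGCTG, an E box of E2A, in none and in 13.99%. A match is a run of letters and not a measured site.

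The CD34 window is set beside that of CD52 because these were the antigens whose treated TOM-1 libraries all lay below control by the largest fold and which share a motif, a pairing made after their values were seen. It is RefSeq's on GRCh38.p14, chr1:207911126-207911375, minus strand, with GAGGAA in capitals, starting 76 bases before the start of transcription.
CD34 promoter window: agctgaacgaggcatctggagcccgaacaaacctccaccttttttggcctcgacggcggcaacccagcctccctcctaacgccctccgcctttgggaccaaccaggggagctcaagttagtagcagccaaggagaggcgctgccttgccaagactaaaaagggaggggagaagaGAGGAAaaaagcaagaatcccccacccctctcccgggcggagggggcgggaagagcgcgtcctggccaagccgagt
GAGGAA is read on the opposite strand in CD52, so the cores face in opposite directions relative to transcription. The CD52 window has a GC content of 56.4% and the CD34 window 61.6%, against a median of 58.0% over all windows.

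Other genes that belong with these antigens were counted by list, from 5 lists drawn up by role with earlier results known. They hold 147 genes, 12 of them in more than 1 list, and none of the 9 antigens. In RS4;11 edgeR called none of them in any list, while 1 or 2 of each list had an unadjusted p under 0.05 and DESeq2 called 0. Without TOM-1 control replicate 3, edgeR called 1 B-lineage antigen and 1 ligand or partner in RS4;11. The accounts that follow are of TOM-1, beside the 31.9% of all genes called there and a median log2 fold change of 0.05. Of all genes 5527 were called there, 7616 (41.6%) without control replicate 3 and 2639 in a fit of the TOM-1 libraries alone. Without treated replicate 1, 2 or 3 the count was 3971, 3960 or 4012. Counts of each list under these settings are to be read beside those of all genes.

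Of the other B-lineage surface antigens, 13 of 25 tested were past the threshold in TOM-1, 6 higher and 7 lower, with a median log2 fold change of -0.28. Without control replicate 3 it was 18 of 27, 10 higher and 8 lower, with a median of 0.13. That median is over 27 genes and not the same 25, so its change of sign is not ascribed to that library's values. A fit of the TOM-1 libraries alone called 7. CD69, an early activation antigen that holds lymphocytes in tissue, rose from 2.16 ± 0.954 to 11.3 ± 1.46 CPM (log2 fold change 2.39, SE 0.33, edgeR adjusted p = 0.000281). IGHM, the heavy chain of IgM, rose from 353 ± 148 to 873 ± 12.4 CPM (1.30, SE 0.22, edgeR adjusted p = 0.00102). FCRLA, an Fc receptor-like protein inside B cells, rose by 1.41 (SE 0.29, edgeR adjusted p = 0.00368). CD48, which like CD52 is GPI-anchored, fell from 39.8 ± 6.83 to 13.1 ± 0.392 CPM (-1.60, SE 0.14, edgeR adjusted p = 1.28e-05). CD74, the invariant chain of MHC class II, changed by -1.04 (SE 0.18, edgeR adjusted p = 0.00129). Leaving out control replicate 3 gave log2 fold changes of 2.30 for CD69, 1.70 for IGHM, 1.75 for FCRLA, -1.46 for CD48 and -0.73 for CD74.

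Among antigens that mark progenitors or appear out of place on leukaemia cells, 12 of 28 passed in TOM-1, 7 higher and 5 lower, with a median of 0.06. Without control replicate 3 it was 15 of 28, without treated replicate 1 or 2 it was 7, and a fit of the TOM-1 libraries alone called 5. ITGA6, an integrin chain that binds laminin, rose from 9.41 ± 2.71 to 36.8 ± 2.53 CPM (1.96, SE 0.22, edgeR adjusted p = 7.93e-05). NT5E (CD73), which makes adenosine from AMP and is GPI-anchored, rose by 1.33 (SE 0.24, edgeR adjusted p = 0.00148). CSPG4, the NG2 proteoglycan known from KMT2A-rearranged leukaemia, fell from 12.4 ± 1.72 to 2.84 ± 0.803 CPM (-2.13, SE 0.19, edgeR adjusted p = 1.82e-05), and stood at 160 ± 6.85 CPM in RS4;11 control. IL7R, the interleukin-7 receptor chain of B-cell precursors, fell from 169 ± 80.2 to 70.2 ± 2.06 CPM (-1.27, SE 0.29, edgeR adjusted p = 0.00553). ENG (endoglin) changed by -0.59 (SE 0.14, edgeR adjusted p = 0.00769). ANPEP (CD13), a peptidase of myeloid cells, changed by 1.36 (SE 0.42, edgeR adjusted p = 0.0286). The ANPEP call was lost without TOM-1 control replicate 1, any treated TOM-1 library or RS4;11 treated replicate 2, at edgeR adjusted p from 0.0505 to 0.0935. With control replicate 3 absent the log2 fold changes were 1.76 for ITGA6, 1.24 for NT5E, -2.24 for CSPG4, -1.62 for IL7R, -0.40 for ENG and 1.18 for ANPEP.

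Of other surface proteins used as targets of antibodies or engineered cells, 13 of 23 passed in TOM-1, 8 higher and 5 lower, with a median of 0.03, and 15 of 23 without control replicate 3. Without treated replicate 3 it was 8, and a fit of the TOM-1 libraries alone called 7. ICAM1, an adhesion molecule, rose from 2.50 ± 0.975 to 17.6 ± 3.18 CPM (2.79, SE 0.29, edgeR adjusted p = 4.42e-05). TNFRSF10B, a death receptor for TRAIL, rose from 21.3 ± 4.82 to 108 ± 5.73 CPM (2.33, SE 0.17, edgeR adjusted p = 4.93e-06). LAIR1, an inhibitory receptor for collagen, rose by 1.38 (SE 0.16, edgeR adjusted p = 0.000113). BST2 (tetherin), an interferon-inducible protein with a GPI anchor, fell from 130 ± 75.9 to 25.7 ± 0.384 CPM (-2.34, SE 0.30, edgeR adjusted p = 0.000185). TFRC, the transferrin receptor, fell from 229 ± 54.8 to 79.0 ± 4.15 CPM (-1.53, SE 0.16, edgeR adjusted p = 4.33e-05). In the 11 libraries without control replicate 3 the values were 2.52 for ICAM1, 2.16 for TNFRSF10B, 1.46 for LAIR1, -1.72 for TFRC and, smaller than with it, -1.76 (SE 0.08) for BST2.

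CD52 and CD24 need the GPI anchor to stay on the membrane, so the genes that build and attach it were counted too. In TOM-1 8 of 29 passed, 2 higher and 6 lower, with a median of 0.08, and 12 of 29 without control replicate 3, 4 higher and 8 lower. Without treated replicate 2 or 3 it was 5, and a fit of the TOM-1 libraries alone called 2. PIGB, a mannosyltransferase of the anchor, rose from 11.7 ± 2.51 to 24.3 ± 3.21 CPM (1.06, SE 0.18, edgeR adjusted p = 0.0009). PIGK, the catalytic subunit of the transamidase that joins anchor and protein, rose by 1.01 (SE 0.23, edgeR adjusted p = 0.00607). PGAP3, which remodels the lipid, changed by -0.99 (SE 0.24, edgeR adjusted p = 0.00886). DPM2, a subunit of the enzyme that makes the mannose donor, changed by -0.99 (SE 0.33, edgeR adjusted p = 0.0375), and GPAA1, another transamidase subunit, by -0.82 (SE 0.25, edgeR adjusted p = 0.027). Much of the size of these last values came from control replicate 3. Without it DPM2 was at -0.35 and GPAA1 at -0.33, while PIGB was at 0.90, PIGK at 0.73 and PGAP3 at -0.74. DPM2 and GPAA1 stayed past the threshold without that library (edgeR adjusted p = 0.0387 and 0.000476). Their calls did need all 3 treated TOM-1 libraries, with adjusted p in edgeR of up to 0.0951 when 1 was absent.

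**Figure D5:**
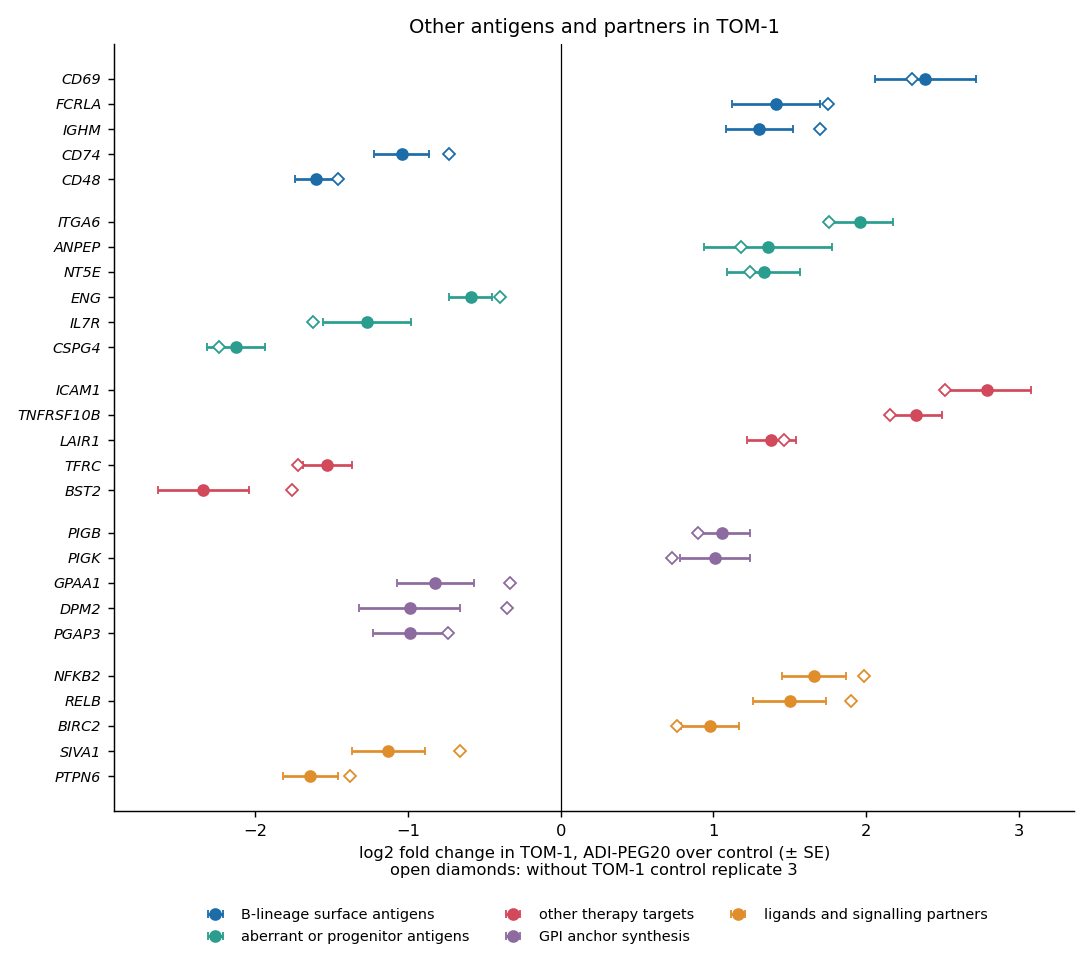
Log2 fold change in TOM-1, ADI-PEG20 over control, of the genes named from the 5 lists, with SE from all 12 libraries (filled circles), and without control replicate 3 (open diamonds). ICAM1 lies highest at 2.79 and BST2 lowest at -2.34, and the diamonds of DPM2 and GPAA1 lie nearest to 0.

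Ligands and signalling partners of the antigens passed in 13 of 30 cases in TOM-1, 8 higher and 5 lower, with a median of -0.02. Without control replicate 3 it was 19 of 31, 9 higher and 10 lower, and a fit of the TOM-1 libraries alone called 7. NFKB2, a precursor subunit of alternative NF-kB signalling, rose from 26.5 ± 9.67 to 83.4 ± 2.89 CPM (1.66, SE 0.21, edgeR adjusted p = 0.000147). RELB, a partner of its product, rose from 14.9 ± 6.42 to 42.1 ± 3.11 CPM (1.5, SE 0.24, edgeR adjusted p = 0.000658), and BIRC2, a ubiquitin ligase of the receptor complex, rose by 0.98 (SE 0.19, edgeR adjusted p = 0.00257). PTPN6 (SHP-1), the phosphatase that CD22 recruits, fell from 154 ± 45.5 to 49.2 ± 4.07 CPM (-1.64, SE 0.18, edgeR adjusted p = 5.3e-05). SIVA1, which binds the tail of CD27, fell by 1.13 on the log2 scale (SE 0.24, edgeR adjusted p = 0.00438), and by 0.66 without control replicate 3. Leaving that library out, NFKB2 was at 1.99, RELB at 1.90, BIRC2 at 0.76 and PTPN6 at -1.38.

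Direct partners of the antigens differed widely in level. TNFSF13B, the ligand BAFF, was at 1.19 ± 0.930 CPM in TOM-1 control and 0.420 ± 0.265 with ADI-PEG20 (-1.54, SE 0.59, edgeR adjusted p = 0.0681, and -1.90 with edgeR adjusted p = 0.00329 without control replicate 3). It was at 5.18 ± 0.897 CPM in RS4;11 control. CD70, the ligand of CD27, was at 0.164 ± 0.177 and 0.807 ± 0.651 CPM in TOM-1 and at 14.8 ± 0.309 and 14.6 ± 1.02 CPM in RS4;11. Its log2 fold change in TOM-1 was 2.17 (SE 0.74), or 1.76 (SE 0.59) without control replicate 3. Its call in TOM-1 (edgeR adjusted p = 0.0414) held in 3 of the 12 fits that left out a library, those without TOM-1 control replicate 2 or 3 or treated replicate 2, and was lost in the others at edgeR adjusted p up to 0.224. SIGLEC10, which binds CD24, was at 0.454 ± 0.540 CPM in TOM-1 control and 10.4 ± 1.88 in RS4;11 control. Its log2 fold change in TOM-1 was 0.06 (SE 0.72), or -0.43 (SE 0.46) without control replicate 3, neither past the threshold. PECAM1, a ligand of CD38, was at 237 ± 24.1 and 186 ± 1.08 CPM in TOM-1 (-0.35, SE 0.30, edgeR adjusted p = 0.426, and -0.43 with edgeR adjusted p = 0.00303 without control replicate 3) but at 0.576 ± 0.493 CPM in RS4;11 control. ST6GAL1, which makes the sialic acid linkage CD22 binds, was at 22.0 ± 7.69 CPM in TOM-1 control and 106 ± 11.3 in RS4;11 control. In TOM-1 its log2 fold change was -0.17 (SE 0.25, edgeR adjusted p = 0.683). Without control replicate 3 it was -0.43 (SE 0.15, edgeR adjusted p = 0.0198). BST1, a relative of CD38, was at 0.123 ± 0.213 CPM in TOM-1 control. At this low level its log2 fold change in TOM-1 was -0.33 (SE 1.12), or -0.82 (SE 1.07) without control replicate 3, neither past the threshold.

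The genes most like each antigen in their profile were found by the root mean square (RMS) difference of centred log2 CPM over the 11 libraries without TOM-1 control replicate 3, among 10402 genes (10403 for CD27). For CD52 they were ID3, an inhibitor of DNA binding (RMS 0.36), and MEX3A, an RNA-binding protein (0.37), against a median of 1.00 over all candidates. Over 3 libraries each, ID3 averaged 437 CPM in TOM-1 control, 91.9 with ADI-PEG20, and 141 and 122 in RS4;11 control and treated cells. For CD24 they were STAT5A (RMS 0.09) and NIBAN3 (0.12), and for TNFRSF13C TMEM263 and CIITA, the regulator of MHC class II (both 0.09). CD22 lay nearest to STK35 and UBAP2 (both 0.06), and CD38 to NRP1 (0.07) and IDE (0.08). MS4A1 was nearest to APP (0.67) and SDK2 (0.71), and MME to POU4F1 (0.50) and SHANK3 (0.57). These neighbours averaged 0.118 CPM or less in both RS4;11 groups, where MS4A1 and MME were also near 0. In control and treated TOM-1, APP averaged 290 and 293 CPM and SDK2 112 and 126, against 309 and 241 for MS4A1. POU4F1 averaged 249 and 466 CPM there and SHANK3 165 and 350, against 482 and 528 for MME. CD34 was nearest to CD84 (0.33) and CSGALNACT1 (0.36), and CD27 to PDPK2P (0.60) and HLA-DMB (0.63). These likenesses describe 11 libraries that fall into 4 groups and carry no test.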

How the data were processed

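RNA from TOM-1 and RS4;11 cells was sequenced after poly(A) capture, per the labels' protocols. What the authors deposited is a single table of raw read counts, in whole numbers and not normalized, with a row per Ensembl identifier. STAR, SAMtools, featureCounts and the hg38 build are named in the submitters' processing notes. Annotation release and strand setting are not given in the sources used here, so reads of overlapping genes may have been dropped or assigned to either gene. Samples were grouped by their titles, and columns matched through the sample descriptions.

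The table held 60664 rows, 29301 of them at 0 in every library, and no row without a gene. Symbols were matched for 60463 rows. Lengths, positions and overlaps came from GENCODE 29 on GRCh38, with 58396 rows matched, and promoter windows from RefSeq on GRCh38.p14.

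The analysis used edgeR 4.0.16 (R 4.3.3): filterByExpr, which kept 17349 genes (18321 without TOM-1 control replicate 3), TMM scaling, a group-means model over all 12 libraries (glmQLFit, glmQLFTest), Benjamini-Hochberg adjustment over all tested genes and a threshold of 0.05. The SE is the size of the log2 fold change divided by the square root of F. The steps were tested on simulated data. Replicate pairs differed by more than sampling noise (chi-square per degree of freedom of 4.93 or more), so none was merged. Intervals give counting error alone, as PCR reads with no molecular identifier are not independent.

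The members and lists were chosen with earlier results of these data known. All 9 antigens are named. From each list, up to 3 genes per direction and treatment comparison are named, the largest in fold change among those past the threshold, at a mean of 5 CPM or more and with no overlap between groups, and 7 partners are named whatever their values. Of the genes this rule selects, 1 is not reported here. Alternatives were scaling by DESeq2 size factors or by the upper quartile, no filter, a mean of 10 counts, DESeq2 1.42.0, the replicate block, a fit of each contrast's own libraries, and leaving out each library. Figures were drawn with matplotlib 3.10.9.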

Additional observations from a re-analysis of the deposited data

Results flagged for a closer look

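For 20 of the genes named, the effect of ADI-PEG20 differed between the lines by edgeR's test of that difference, and each is given as TOM-1 minus RS4;11 on the log2 scale. CD52 was the antigen among them, at -3.13 (SE 0.42), and it was lower in all 3 treated TOM-1 libraries than in any control. This value is a description, since CD52 was chosen with its fold change known. The other genes here were named for their fold change in TOM-1, whose libraries this test also uses. Their adjusted p-values thus partly restate that choice and are a description too. Of all genes tested, 11.9% passed for this difference, and 30.4% without TOM-1 control replicate 3.

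Among the other surface antigens CD69 differed by 2.09 (edgeR adjusted p = 0.0164), IGHM by 1.32 (0.0175), CD48 by -1.73 (0.000296) and CD74 by -1.08 (0.0184). Among antigens of progenitors ITGA6 differed by 1.68 (edgeR adjusted p = 0.00584), NT5E by 1.87 (0.00538), CSPG4 by -2.09 (0.000589) and IL7R by -1.40 (0.0415). Among other targets ICAM1 differed by 2.95 (edgeR adjusted p = 0.000914), TNFRSF10B by 2.74 (7.11e-05), LAIR1 by 1.41 (0.0032), BST2 by -2.38 (0.0039) and TFRC by -1.74 (0.000723).

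In GPI anchor synthesis PIGB differed by 1.23 (edgeR adjusted p = 0.00868) and PGAP3 by -1.16 (0.0462). Among signalling partners NFKB2 differed by 1.90 (edgeR adjusted p = 0.0019), RELB by 1.68 (0.00797), BIRC2 by 0.98 (0.0366) and PTPN6 by -1.51 (0.00261).

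Without TOM-1 control replicate 3 the difference was -2.65 (SE 0.27) for CD52. It was then 2.00 for CD69, 1.71 for IGHM, -1.59 for CD48, -0.78 for CD74, 1.48 for ITGA6, 1.78 for NT5E, -2.20 for CSPG4 and -1.75 for IL7R. For the others it was 2.68 for ICAM1, 2.56 for TNFRSF10B, 1.49 for LAIR1, -1.8 for BST2, -1.93 for TFRC, 1.07 for PIGB, -0.91 for PGAP3, 2.24 for NFKB2, 2.09 for RELB, 0.76 for BIRC2 and -1.24 for PTPN6.

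Some of these calls were lost when a library was left out. That of CD69 was lost without TOM-1 treated replicate 1 or 2 or RS4;11 treated replicate 1 (edgeR adjusted p up to 0.0537), and that of CD74 without TOM-1 treated replicate 3 or RS4;11 control replicate 1 (up to 0.0582). The IGHM call was lost without TOM-1 treated replicate 2 or 3, RS4;11 control replicate 3 or RS4;11 treated replicate 1 or 2 (edgeR adjusted p up to 0.0582). PGAP3 and BIRC2 lost theirs without any 1 of the treated TOM-1 or the RS4;11 libraries (edgeR adjusted p up to 0.107 and 0.109), and IL7R without any library except TOM-1 control replicate 3 (up to 0.0961). The other 13 context genes kept the call in all 12 such fits.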

How the results depend on the processing

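The number of antigens past the threshold in TOM-1 was 1 in the full fit and 3 without TOM-1 control replicate 3, and ran from 1 to 3 over the 12 fits that left out a library. In RS4;11 it was 0 in all of these, for the difference of effects 1 in all, between the lines in control culture 6 to 9 and with ADI-PEG20 6 to 8. The other scalings, filters, tests and fits gave 1, 0, 1, 6 and 7 to 8. Of 842 alternative log2 fold changes of the antigens, 806 lay within the spread of the main value, 36 moved further and 0 turned a called sign. Same-numbered libraries did not deviate together (r of -0.027, -0.012 and -0.062 in TOM-1, and 0.057, 0.031 and 0.145 in RS4;11), and not every library correlated best with its own number. With the replicate number as a block the antigens past the threshold were 1, 0, 1, 6 and 7, and all genes called 5324, 0, 1939, 5647 and 7964. Over all genes, a fit on the libraries of the contrast alone called 2639 in TOM-1 against 5527, 3548 between the lines in control culture against 6014, and 3 in RS4;11 against 0. DESeq2 called 3228 for the difference of effects against 2072. Without TOM-1 control replicate 3 these counts were 5567 for the difference, 9681 between control lines and 58 in RS4;11. The causes were not tested. With 16 counts or fewer in any RS4;11 library, depth limits MS4A1, MME and CD27 there.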
